A study of Mus musculus with 18 samples.

Results

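Ebf1, Pax5 and 8 further transcription factor genes of B-cell commitment (Foxo1, Lef1, Pou2af1, Pou2f2, Bach2, Bcl11a, Foxp1 and Sox4) were followed across 6 groups of mouse bone marrow cells. They were taken by gene name from a count table of 32285 genes, and all 10 were found. All cells were CD45.2-positive bone marrow cells of C57BL/6 mice, isolated by flow cytometry. The control cells have the genotype CD45.2(+), and the day 6 controls are also called Mock in the labels. The other cells are CD45.2(+) BRD9-NUTM1 (BN1) or CD45.2(+) AFF1-NUTM1 (AFFN1) and so carry a gene fusion that joins NUTM1, normally a gene of the testis, to BRD9 or to AFF1. Each genotype was sampled on day 6 and on day 14 with 3 RNA-seq libraries per group, 18 in all. The labels use the code iLS without spelling it out and do not say how the fusions were introduced, whether a line is 1 clone, or whether the libraries of a group came from separate animals or cultures. What the p-values measure is therefore how far these libraries vary, and that variation may be technical. Day 14 descriptions carry numeric codes that the day 6 descriptions lack, so day and experiment cannot be told apart. Within a day, BN1 and AFFN1 were compared with the same control libraries.

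Commitment to the B lineage is driven by a network of transcription factors that switch each other on. Ebf1 opens the chromatin of early B-cell genes together with E proteins, and Pax5, which Ebf1 activates, turns on further B-cell genes and shuts down genes of other lineages. Foxo1 activates the recombinase genes Rag1 and Rag2 and the receptor gene Il7r, and Pou2f2 and its coactivator Pou2af1 act at the octamer sequence of immunoglobulin promoters. The other members include the HMG-box factors Lef1 and Sox4, the forkhead factor Foxp1 and the repressors Bach2 and Bcl11a. NUTM1 fusions are found in a subset of infant leukemias of the B lineage.

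Libraries held 14.2 to 17.7 times 1e6 counts on day 6 and 17.8 to 18.4 times 1e6 on day 14, and levels are given as counts per 1e6 counts (CPM) scaled by the trimmed mean of M values (TMM). All 10 genes passed the filter on low counts in every comparison. The B-cell receptor gene Cd79a stood at 620 to 4051 CPM and the T-cell gene Cd3e was at 0 in 17 of the 18 libraries. The summed level of 8 T cell markers was 2.38 to 5.34 CPM on day 6 and 23.4 to 74.6 CPM on day 14, with 2 to 6 and 2 to 5 markers at 0. The NK, myeloid, erythroid, dendritic and stromal marker lists summed to 21.0 to 75.2, 49.4 to 146, 308 to 828, 24.0 to 306 and 13.1 to 144 CPM on day 6, and to 7.89 to 52.4, 16.7 to 73.9, 151 to 520, 5.11 to 289 and 20.8 to 44.8 CPM on day 14. Immediate early and stress genes summed to 2144 CPM in BN1 library 3 and 1097 CPM in control library 3 of day 6, against 480 to 568 CPM in the other 7 libraries of that day. The largest component of variation on day 14 (37.2%) set control library 1 and AFFN1 library 1 apart from the other 7.

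The promoter windows of the 10 genes, the 250 bases upstream and 50 bases downstream of each RefSeq start site (GRCm38.p6), were searched for binding motifs of the network itself, on both strands. All 10 genes matched the table of promoters, with 16 windows in all. The EBF core TCCCNNGGG, held by 6.56% of 32817 windows of all genes, was found in the window of Foxo1, where the palindromic match lies at -92 on the sense strand and at -91 on the other, and in 1 of the 3 windows of Foxp1, at -114. The octamer ATGCAAAT (1.74% of all windows), the FOXO site GTAAACA (3.65%) and the LEF/TCF site CTTTGAT (3.73%) were in none of the 16 windows. The site of PU.1, GAGGAAG (13.6%), was in the Sox4 window at -72 and in a window of Foxp1 at 9 bases after the start. The E-box CAGGTG (20.2%) and the Sox site ACAAAG (18.7%) were found only in windows of Lef1 and Foxp1. A match is a description of these letters and not a measured binding site. The 250 upstream bases are shown, 5′ to 3′ on the strand of the gene, for the 2 genes that name the group and for the 2 genes with an EBF core. Capitals mark the EBF core, and in Foxp1 also the Sox site.
Ebf1, chr11:44617850-44618099, plus strand: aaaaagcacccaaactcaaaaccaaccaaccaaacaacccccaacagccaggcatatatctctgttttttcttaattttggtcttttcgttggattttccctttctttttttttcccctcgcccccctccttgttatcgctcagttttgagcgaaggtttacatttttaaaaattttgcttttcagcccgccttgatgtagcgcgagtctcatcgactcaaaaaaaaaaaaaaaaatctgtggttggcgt
Pax5, chr4:44710695-44710944, minus strand: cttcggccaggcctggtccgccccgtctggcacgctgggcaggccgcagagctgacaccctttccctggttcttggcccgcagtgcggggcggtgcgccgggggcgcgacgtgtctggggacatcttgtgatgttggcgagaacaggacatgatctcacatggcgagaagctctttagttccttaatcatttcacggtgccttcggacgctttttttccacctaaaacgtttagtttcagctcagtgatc
Foxo1, chr3:52268087-52268336, plus strand: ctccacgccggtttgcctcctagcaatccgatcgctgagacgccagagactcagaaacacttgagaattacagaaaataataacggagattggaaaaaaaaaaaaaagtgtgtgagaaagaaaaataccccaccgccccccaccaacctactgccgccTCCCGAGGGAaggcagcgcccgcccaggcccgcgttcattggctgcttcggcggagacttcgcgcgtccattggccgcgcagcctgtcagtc
Foxp1, chr6:99520994-99521243, minus strand: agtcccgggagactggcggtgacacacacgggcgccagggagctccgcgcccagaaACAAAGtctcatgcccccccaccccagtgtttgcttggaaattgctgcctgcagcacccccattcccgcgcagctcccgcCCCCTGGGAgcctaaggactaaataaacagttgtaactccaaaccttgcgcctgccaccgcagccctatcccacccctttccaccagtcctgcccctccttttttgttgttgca

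Levels of different genes were compared only per length, as CPM per kilobase of merged exons. In control cells on day 6, Pou2af1 was highest at 131 ± 18.9 CPM per kb (SD, n = 3), followed by Sox4 at 82.3 ± 7.25, Pax5 at 66.1 ± 3.63 and Ebf1 at 45.5 ± 8.56 CPM per kb. By this length, these 4 steps were each wider than the spread of the libraries. Foxo1 (25.5 ± 3.75), Lef1 (24.6 ± 10.6), Foxp1 (20.4 ± 2.92) and Bcl11a (19.6 ± 1.79 CPM per kb) overlapped their neighbours in the order. Bach2 at 8.29 ± 1.61 and Pou2f2 at 6.12 ± 0.612 CPM per kb were lowest and overlapped each other. On day 14 Pou2af1 and Sox4 again had the highest means in each group. Libraries of Pou2af1 and Sox4 overlapped in AFFN1 cells of that day, and those of Sox4 and Pax5 in control cells. Lef1 stood at 55.8 ± 18.8 in control, 90.5 ± 9.19 in BN1 and 81.8 ± 14.8 CPM per kb in AFFN1 cells of day 14, next to Ebf1 in each case. AFFN1 cells of day 6 had another order, with Sox4 first at 112 ± 7.39, then Pax5 at 85.7 ± 7.37 and Pou2af1 at 73.5 ± 1.76 CPM per kb, and with Lef1 last at 9.81 ± 1.02 CPM per kb. The order depends on the length used. With the longest transcript in place of all exons, Lef1 ranked 5 in control cells of day 6 and 2 in all 3 groups of day 14. Ebf1 and Pax5 also changed places, with means of 74.2 and 73.2 CPM per kb in control cells of day 6. On day 14 Ebf1 then ranked 4 and Pax5 ranked 5 in all 3 groups.

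**Figure D1:**
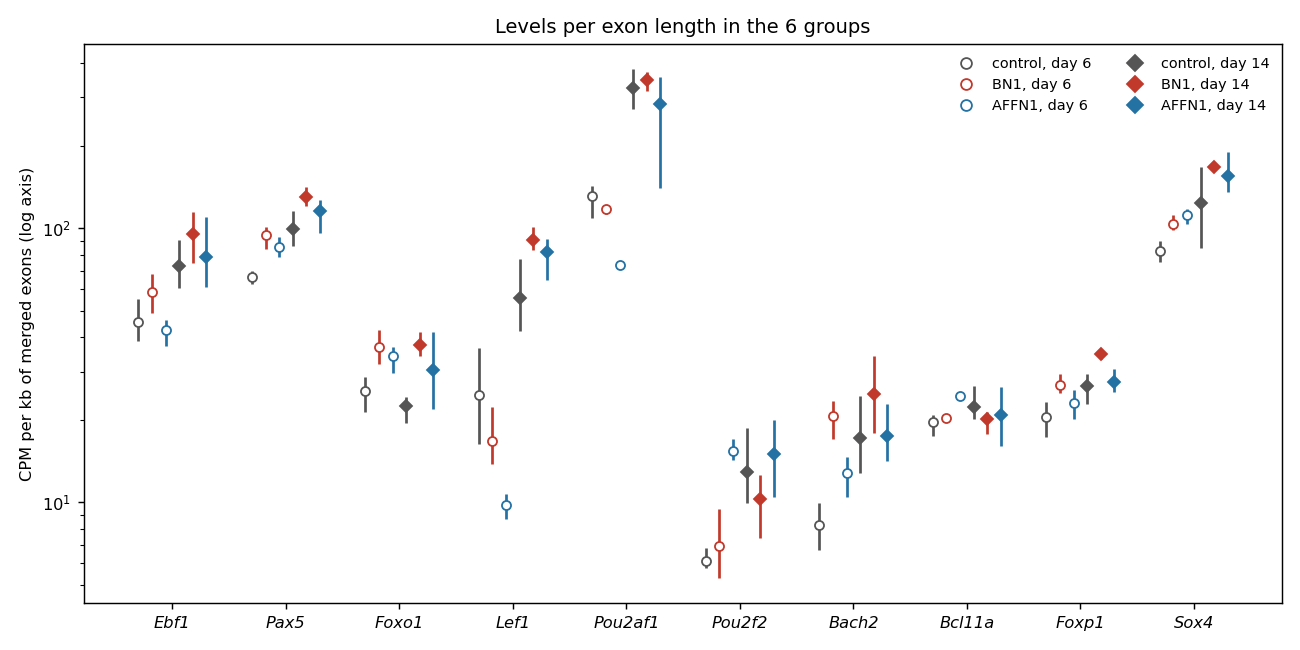
Level of each gene in CPM per kb of merged exons (log axis) in the 6 groups, with the mean of 3 libraries as the point and the lowest and highest library as the ends of the bar. By the mean, Pou2af1 lies highest in 5 of the 6 groups, and Lef1 spans the range from 9.81 in AFFN1 cells of day 6 to 90.5 CPM per kb in BN1 cells of day 14.

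In control cells, 8 of the 10 genes were higher on day 14 than on day 6 and none was lower (edgeR's quasi-likelihood test on all 18 libraries, Benjamini-Hochberg adjusted p under 0.05, the threshold for a call here). Of all 12567 genes tested, 22.4% were called higher and 21.4% lower. The median log2 fold change was 0.63 over the 10 genes and -0.029 over all genes. Ebf1 (chr11:44617317-45008091, plus strand, as annotated in GENCODE M21 for mm10) had 416, 377 and 537 CPM in the control libraries of day 6 and 589, 652 and 886 CPM in those of day 14. No library of the earlier day reached those of the later day. The log2 fold change was 0.68 ± 0.23 (SE, n = 3 against 3, adjusted p = 0.0254). Pax5 (chr4:44524757-44710487, minus strand) had 619, 584 and 555 CPM on day 6 and 861, 1019 and 762 CPM on day 14. Its groups were also separate, and the rise was 0.59 ± 0.14 on the log2 scale (adjusted p = 0.00225).

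The octamer coactivator Pou2af1 (chr9:51213708-51240080, plus strand) had the largest rise, 1.31 ± 0.25 on the log2 scale (adjusted p = 0.000522), from 363, 278 and 359 CPM to 694, 819 and 968 CPM. Pou2f2 (chr7:25087344-25179726, minus strand), which encodes the octamer-binding protein Oct-2, rose by 1.08 ± 0.29 (adjusted p = 0.00688), from 56.2, 47.3 and 47.7 CPM to 84.4, 81.8 and 154 CPM. The 2 partners of the octamer thus stood higher in every day 14 control library than in any of day 6. Lef1 (chr3:131110471-131224356, plus strand), a partner of beta-catenin in Wnt signalling, rose by 1.18 ± 0.28 (adjusted p = 0.00335), from 185, 143 and 321 CPM to 370, 679 and 423 CPM. Bach2 (chr4:32238804-32586108, plus strand), a repressor that delays plasma cell differentiation, rose by 1.05 ± 0.28 (adjusted p = 0.00627), from 82.3, 66.4 and 98.5 CPM to 127, 243 and 143 CPM. All 4 genes kept separate groups. Foxp1 (chr6:98925338-99522721, minus strand) and Sox4 (chr13:28948919-28953713, minus strand, a gene of 1 exon) were called higher by 0.38 ± 0.13 (adjusted p = 0.0277) and 0.58 ± 0.19 (adjusted p = 0.0182), with groups that overlapped. Foxo1 (chr3:52268336-52353221, plus strand) differed by -0.18 ± 0.19 (adjusted p = 0.464) and Bcl11a (chr11:24078056-24174123, plus strand), a zinc finger repressor needed for early lymphoid cells, by 0.19 ± 0.15 (adjusted p = 0.335).

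The calls of Pax5, Lef1, Pou2af1, Pou2f2 and Bach2 held when any single control library was left out. The count fell to 5 without control library 2 of day 6 and to 5 without control library 3 of day 14, in both cases through Ebf1 (adjusted p = 0.0952 and 0.128), Foxp1 (0.131 and 0.0762) and Sox4 (0.0661 and 0.151). In these fits 4852 and 4787 of all genes were called, against 5512 with all libraries. Ebf1 and Foxp1 also lost the call without control library 1 of day 6 (0.0773 and 0.0587), and Foxp1 without control library 2 of day 14 (0.104). Without the libraries numbered 2 of all groups 3 genes were called, and Pax5 (0.0706) and Lef1 (0.123) were among those lost, while 3614 of 12649 genes were called in all. Without those numbered 3 it was 6, with Pou2f2 (0.162) and Sox4 (0.152) lost, while 4374 of 12543 genes were called. Without those numbered 1 it was 7, with Ebf1 lost (0.0829), while 4189 of 12695 genes were called. Setting the days side by side rests on the scaling, since the TMM factors were 1.10 to 1.15 on day 6 and 0.815 to 0.911 on day 14. Markers of other cells moved with the day as well. All 3 tested T cell markers were higher on day 14, mostly through Thy1 (control 1.54 to 2.57 CPM on day 6 and 43.4 to 55.7 CPM on day 14), and 3 of 4 NK and 3 of 5 myeloid markers were lower. Their part in these results was not tested. In bulk samples, more cells of a type and more RNA per cell cannot be told apart.

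**Figure D2:**
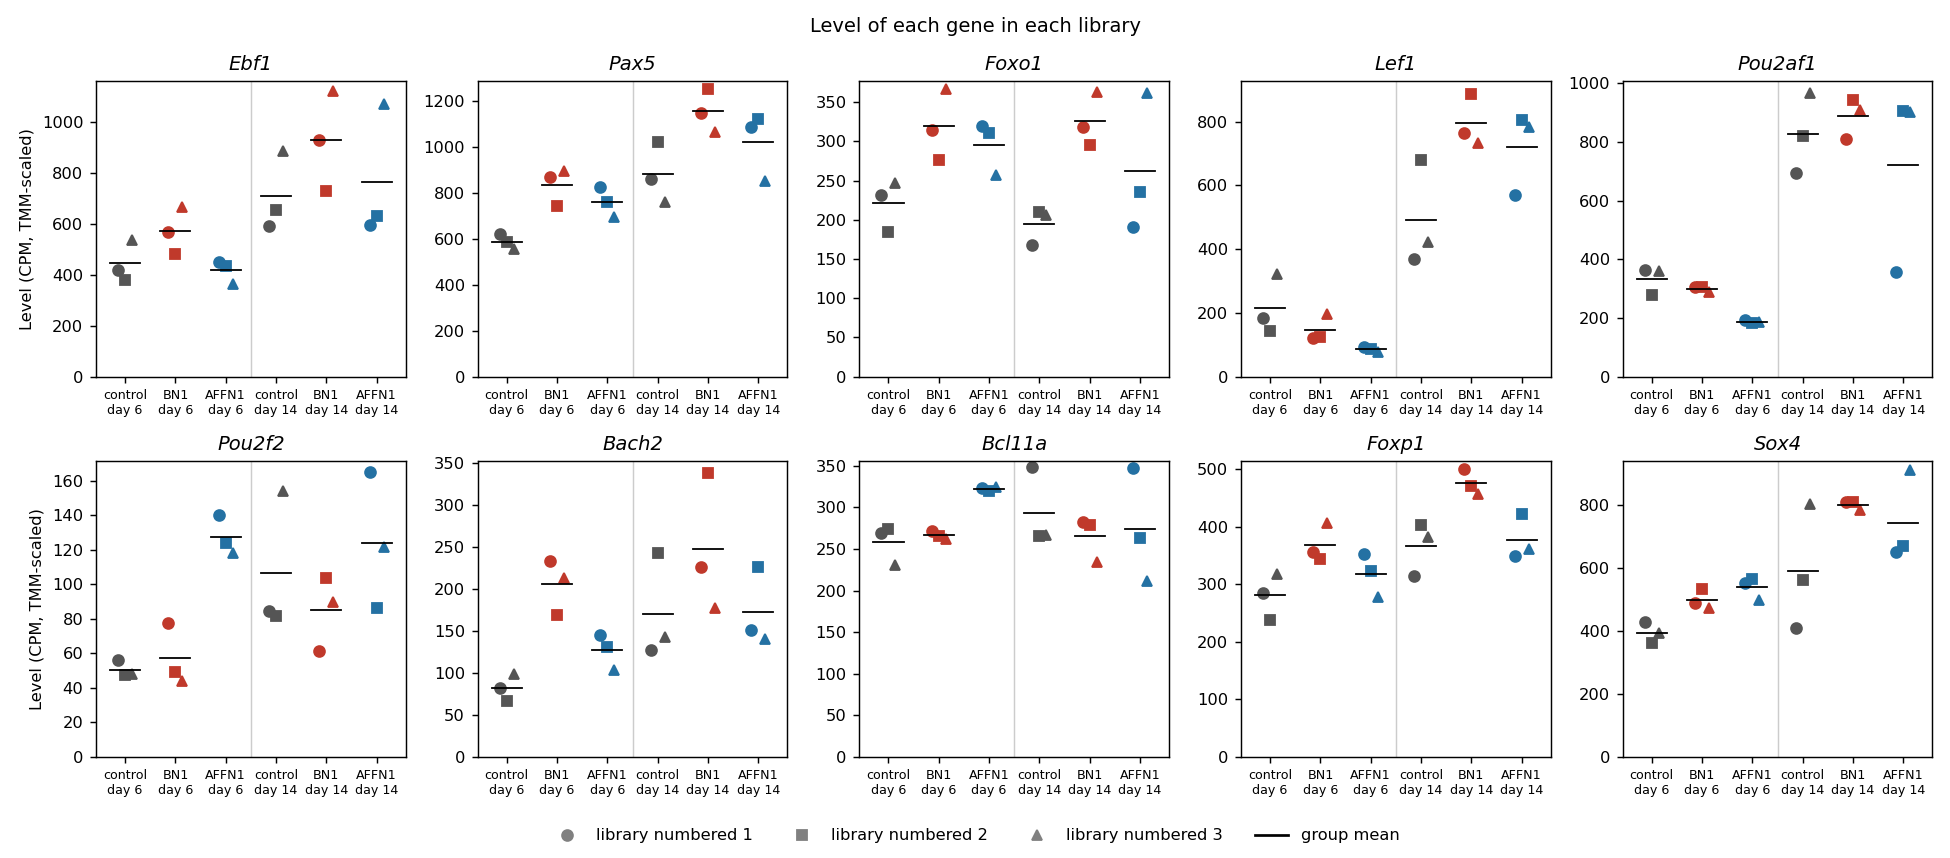
Level of the 10 genes in each of the 18 libraries in CPM (TMM-scaled), by group, with the replicate number as the marker shape and a bar at the group mean. In Ebf1, Pax5, Lef1 and Pou2af1 every day 14 library lies above every day 6 library of the same genotype, while Bcl11a stays between 212 and 349 CPM.

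On day 6, 4 of the 10 genes were higher in BN1 than in control cells and none was lower, by the test on the 9 libraries of that day. Of 12068 genes tested, 8.83% were called higher and 8.53% lower. The median log2 fold change was 0.34 over the 10 genes and -0.022 over all. Bach2 had the largest difference. It stood at 82.3, 66.4 and 98.5 CPM in control and at 234, 169 and 214 CPM in BN1 cells. The lowest BN1 library was thus above the highest control, and the log2 fold change was 1.31 ± 0.18 (adjusted p = 0.000766). Pax5 had 619, 584 and 555 CPM in control and 870, 744 and 893 CPM in BN1 cells. The difference of 0.50 ± 0.10 (adjusted p = 0.00703) was again wider than the spread of the libraries.

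Foxo1 stood at 232, 185 and 247 CPM in control and 315, 276 and 367 CPM in BN1 cells, which is 0.52 ± 0.14 higher on the log2 scale (adjusted p = 0.0293). Sox4, an HMG-box factor of progenitor B cells, stood at 430, 360 and 394 CPM in control and 488, 534 and 472 CPM in BN1 cells (0.32 ± 0.093, adjusted p = 0.0386). The groups of both genes were separate. Foxp1, which supports early B-cell development, also had separate groups, with 285, 238 and 318 CPM in control and 355, 344 and 406 CPM in BN1 cells, but missed the threshold (0.38 ± 0.12, adjusted p = 0.0616). Ebf1 itself was at 565, 480 and 665 CPM in BN1 against 416, 377 and 537 CPM in control cells (0.35 ± 0.16, adjusted p = 0.148), and the groups overlapped. The other 4 genes also overlapped, with log2 fold changes of -0.57 ± 0.29 for Lef1 (adjusted p = 0.208), -0.17 ± 0.10 for Pou2af1 (0.271), 0.16 ± 0.19 for Pou2f2 (0.586) and 0.034 ± 0.083 for Bcl11a (0.808).

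The calls of Bach2 and Pax5 held when any single library was left out. Foxo1 lost its call without BN1 library 1 (adjusted p = 0.0853), BN1 library 3 (0.0947), control library 1 (0.0734) or control library 2 (0.0817). Sox4 lost its call without any 1 of the 3 BN1 libraries (0.0541 to 0.121) or without control library 2 (0.0979). Without control library 2 Pou2af1 was called lower (-0.27, adjusted p = 0.0445), so that 2 genes were higher and 1 lower. The count fell to 2 without BN1 library 1 or 3, where 1141 and 1562 of all genes were called, against 2095 with all libraries. Library 3 of both groups had the high immediate early and stress genes. Without control library 3 the count was 6, with Ebf1 (adjusted p = 0.0202) and Foxp1 (0.0141) added, while the genes called in all rose to 3495 of 12239. Without the libraries numbered 3 of all groups it was 7, with 6 higher and Lef1 lower (-0.43, adjusted p = 0.0173), while 3890 of 12075 genes were called in all. Without those numbered 1 it was 1, Bach2, and Pax5 lost its call (0.116), while 473 of 12168 genes were called in all. Without those numbered 2 it was 2, Bach2 and Pax5, while 879 of 12131 genes were called. Foxp1 was also called by DESeq2 (adjusted p = 0.0220) and without the filter on low counts (0.0486). In a fit of all 18 libraries only Bach2 and Pax5 were called. On this day same-numbered libraries of control and BN1 cells, but not those of AFFN1 cells, deviated together (r of 0.155 to 0.351), and with the number as a block Sox4 had an adjusted p of 0.0602 and the other 3 calls held. Summed NK markers were 68.8 to 75.2 CPM in BN1 and 21.0 to 57.9 CPM in control cells, and summed dendritic markers, nearly all Ccr9, were 262 to 301 and 24.0 to 46.0 CPM. Summed T cell markers were 4.54 to 5.34 and 2.38 to 3.02 CPM. Summed erythroid markers lay the other way, at 321 to 432 CPM in BN1 and 496 to 828 CPM in control cells. Their part in the differences was not tested.

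AFFN1 cells of day 6 differed from control in 7 of the 10 genes, 5 higher and 2 lower, where 7.79% of all genes were called higher and 4.87% lower. The median was 0.34 over the 10 genes and -0.022 over all. The octamer pair went in opposite directions. Pou2f2 stood at 56.2, 47.3 and 47.7 CPM in control and at 140, 124 and 118 CPM in AFFN1 cells, higher by 1.33 ± 0.19 on the log2 scale (adjusted p = 0.00189). Pou2af1 stood at 363, 278 and 359 CPM in control and at 192, 184 and 186 CPM in AFFN1 cells (-0.84 ± 0.10, adjusted p = 0.000581). Every AFFN1 library was outside the range of the controls in both genes.

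Lef1 was the other gene that fell. It had 185, 143 and 321 CPM in control and 94.3, 87.8 and 76.6 CPM in AFFN1 cells, and the difference was -1.33 ± 0.30 (adjusted p = 0.0190). The control library with 321 CPM was the one with high stress genes. Without it the fall was -0.92 with an adjusted p of 0.0210. Pax5 (824, 759 and 694 CPM, 0.37 ± 0.10, adjusted p = 0.0363), Bach2 (146, 131 and 104 CPM, 0.62 ± 0.17, 0.0446) and Sox4 (553, 564 and 498 CPM, 0.44 ± 0.093, 0.0119) were higher in AFFN1 than in control cells, as in BN1 cells. Bcl11a stood at 269, 273 and 231 CPM in control and at 323, 319 and 324 CPM in AFFN1 cells (0.32 ± 0.083, adjusted p = 0.0321). These 4 genes had separate groups. Foxo1 was separate too, with 319, 310 and 258 CPM, but missed the threshold (0.41 ± 0.14, adjusted p = 0.0799). Ebf1 (451, 435 and 363 CPM, -0.096 ± 0.15, adjusted p = 0.718) and Foxp1 (352, 323 and 278 CPM, 0.17 ± 0.12, 0.388) overlapped the controls.

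The calls of Pou2af1 and Pou2f2 held when any single library was left out, and the other 5 did not. The count fell to 4 without control library 1 and to 2 without AFFN1 library 1 or 2, where 1028, 739 and 747 of all genes were called, against 1528 with all libraries. AFFN1 library 2 had the highest summed stromal markers (144 CPM, against 13.1 to 90.8 CPM in the other day 6 libraries), and without it the adjusted p was 0.0731 for Lef1, 0.121 for Pax5, 0.139 for Bach2, 0.108 for Bcl11a and 0.0643 for Sox4. Without AFFN1 library 1 these values were 0.0691, 0.144, 0.177, 0.0897 and 0.0509. Without AFFN1 library 3 Lef1 (0.0565) and Bcl11a (0.0577) lost the call. Without control library 1 Pax5 (0.0624), Bach2 (0.119) and Bcl11a (0.0526) lost it, and without control library 2 Pax5 (0.0696) and Bach2 (0.126). Foxo1 was called without control library 3 (0.0367) or AFFN1 library 3 (0.0447) and by DESeq2 (0.0351). Pax5 also lost its call with the replicate number as a block (0.0517), and Lef1 (0.0678) and Bach2 (0.0612) without the filter on low counts. Without the libraries numbered 1 of all groups only Pou2f2 was called, and Pou2af1 missed the threshold (0.0505), while 289 of 12168 genes were called in all. Without those numbered 2 only Pou2f2 and Pou2af1 were called, while 401 of 12131 genes were. Without those numbered 3, 7 were higher and 2 lower, while 3873 of 12075 genes were called. In a fit of all 18 libraries only Lef1 and Pou2f2 were called. Summed dendritic markers were 218 to 306 CPM in AFFN1 cells against 24.0 to 46.0 CPM in control cells, again nearly all Ccr9, and 2 of 5 myeloid markers were higher. Summed T cell markers were 3.83 to 4.10 CPM in AFFN1 and 2.38 to 3.02 CPM in control cells. Summed erythroid markers were lower than in control, at 308 to 490 against 496 to 828 CPM. Their part in the differences was not tested.

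Compared directly on day 6, BN1 cells had higher Pou2af1 (0.67 ± 0.10, adjusted p = 0.00198) and Bach2 (0.69 ± 0.17, 0.0300) and lower Pou2f2 (-1.16 ± 0.19, 0.00348) than AFFN1 cells. These were 2 higher and 1 lower of the 10, against 4.99% and 6.19% of all genes, and the 3 genes had separate groups. The difference for Bcl11a, at 272, 266 and 261 CPM in BN1 and 323, 319 and 324 CPM in AFFN1 cells, was -0.28 ± 0.083 (adjusted p = 0.0548). Those for Lef1 (0.76 ± 0.29, 0.143) and Ebf1 (0.45 ± 0.16, 0.0978) also came with separate groups and missed the threshold. For Pax5 the difference between the 2 fusions was 0.13 (95% interval -0.089 to 0.35), for Foxo1 0.10 (-0.20 to 0.41), for Foxp1 0.21 (-0.071 to 0.48) and for Sox4 -0.12 (-0.32 to 0.088). Bach2 lost its call without AFFN1 library 2 (adjusted p = 0.0860), AFFN1 library 3 (0.0841), BN1 library 1 (0.101) or BN1 library 3 (0.0866). With DESeq2 6 of the 10 genes were called, adding Ebf1, Lef1 and Bcl11a, where 1791 of 12062 genes were called in all against 1349 of 12068 by edgeR. Without the libraries numbered 1 of all groups Pou2af1 (0.0816) and Bach2 (0.214) lost the call, while 304 of 12168 genes were called in all. Without those numbered 2 Pou2f2 lost it (0.0683), while 542 of 12131 genes were called. Without those numbered 3, 3 were higher and 1 lower, while 1741 of 12075 genes were called. In a fit of all 18 libraries only Pou2f2 was called.

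**Figure D3:**
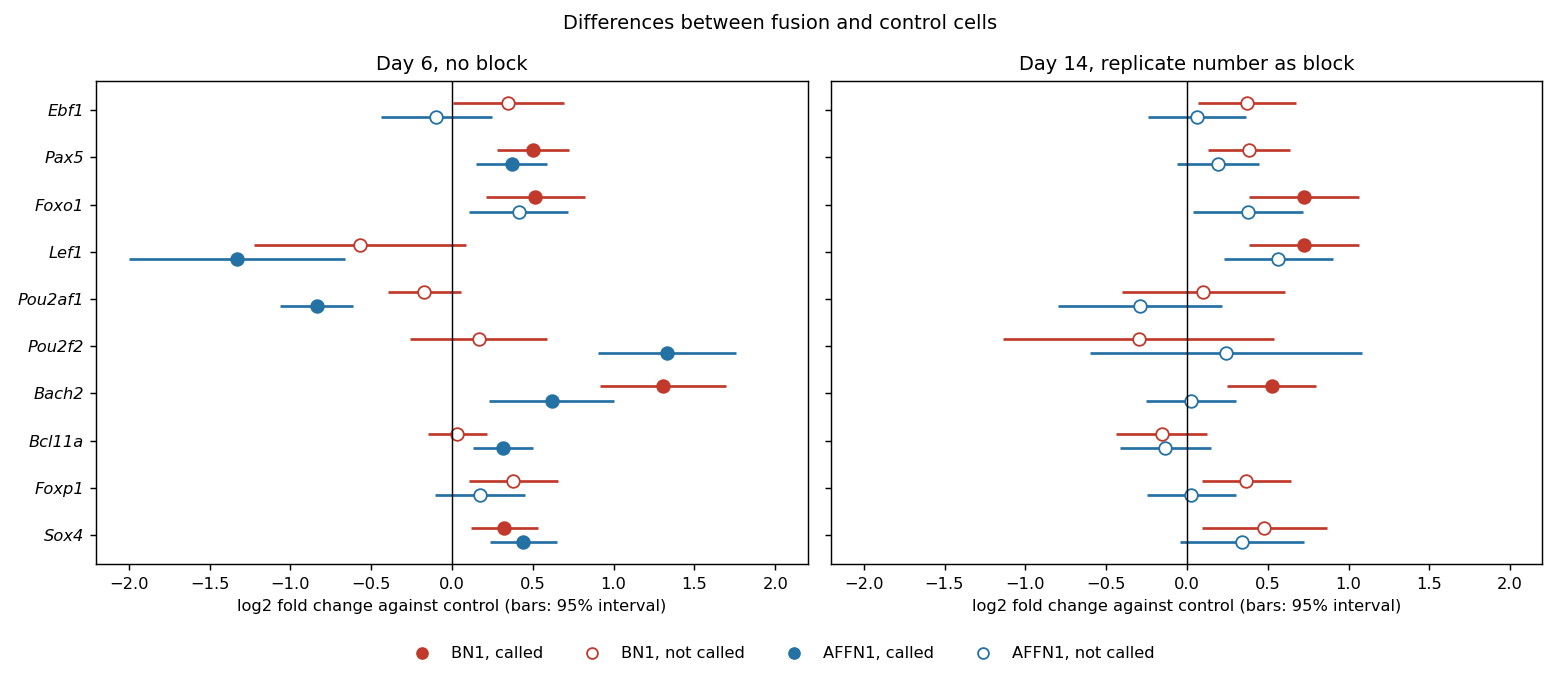
Log2 fold change of each gene against control, with 95% intervals, for BN1 (red) and AFFN1 (blue) on day 6 without a block (left) and on day 14 with the replicate number as a block (right). Filled points passed the adjusted p of 0.05. On day 6 Ebf1 lies at 0.35 in BN1 and -0.096 in AFFN1 cells, neither of them called, and Pou2af1 lies at -0.84 in AFFN1 cells. On day 14 the filled points are Foxo1, Lef1 and Bach2 in BN1 cells.

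On day 14 none of the 10 genes was called in any comparison without the pairing of libraries (edgeR's quasi-likelihood test). At an unadjusted p under 0.05 there were 4 genes in BN1 against control (Pax5, Foxo1, Lef1 and Foxp1), 1 in AFFN1 against control (Lef1) and 1 in BN1 against AFFN1 (Foxp1). Of all 11657 genes, 2351, 721 and 992 were under that p in these comparisons. Of the 10 genes DESeq2 called 1, Foxo1 in BN1 against control (adjusted p = 0.0326), and 0 and 0 in the others. Over all genes DESeq2 called 743 of 11170 in BN1 against control, 77 of 11396 in AFFN1 against control and 91 of 11622 in BN1 against AFFN1. By edgeR's test far fewer were called. Of 11657 genes 0.0172% were higher and 0.00858% lower in BN1 than in control cells, 0.0257% and 0.0172% in AFFN1 than in control cells, and 0% and 0% in BN1 than in AFFN1 cells. On this day the libraries that share a number also share a code in their descriptions and deviated together from their group means (r of 0.291 to 0.614 in 9 pairs). Below, day 14 is therefore given with the replicate number as a block.

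With the block, 3 of the 10 genes were higher in BN1 than in control cells of day 14 and none was lower, where 4.95% of all genes were called higher and 6.61% lower. Foxo1 had 168, 210 and 207 CPM in the control and 318, 296 and 363 CPM in the BN1 libraries numbered 1 to 3. Each BN1 library was above its partner, by 1.89, 1.41 and 1.76 times, and above all controls. The log2 fold change was 0.73 ± 0.15 (adjusted p = 0.0210). Lef1 had 370, 679 and 423 CPM in control and 766, 887 and 734 CPM in BN1 cells, ratios of 2.07, 1.31 and 1.74 (0.72 ± 0.15, adjusted p = 0.0208). Bach2 had 127, 243 and 143 CPM in control and 226, 339 and 178 CPM in BN1 cells. The Bach2 groups overlapped, but the ratio was above 1 in 3 of 3 pairs (1.78, 1.40 and 1.24), and the difference was 0.52 ± 0.13 (adjusted p = 0.0287).

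Pax5 was also above its partner in 3 of 3 pairs, with 1149, 1252 and 1067 CPM in BN1 against 861, 1019 and 762 CPM in control cells, and came close to the threshold (0.38 ± 0.11, adjusted p = 0.0553). The same holds for Foxp1, with 500.4, 470.1 and 457 CPM against 314, 403 and 383 CPM (0.37 ± 0.12, 0.0776), and for Ebf1, with 927, 730 and 1121 CPM against 589, 652 and 886 CPM (0.37 ± 0.14, 0.0998). Sox4 stood at 808, 809 and 785 CPM in BN1 cells and ranged from 408 to 803 CPM in control (0.48 ± 0.17, 0.0963). Pou2af1 (0.10 ± 0.22, 0.794), Pou2f2 (-0.30 ± 0.35, 0.608) and Bcl11a (-0.16 ± 0.13, 0.442) had ratios on both sides of 1. The count of 3 depends on the pairs. Without the libraries numbered 1, which include the control that stood apart, 1 gene was called (Foxo1, adjusted p = 0.0358), without those numbered 2 none (edgeR), and without those numbered 3 again 3 (Foxo1, Bach2 and, in place of Lef1, Sox4). In these 3 fits 594, 143 and 684 of all genes were called, against 1348 with all pairs. Of the markers of other cells, 3 of 4 NK markers were higher in BN1 cells with the block (summed 24.5 to 26.5 CPM, control 7.89 to 10.5 CPM). Summed dendritic markers were higher than in the control of the same number in 3 of 3 pairs, at 289, 118 and 19.3 against 29.6, 40.2 and 6.97 CPM, and so were summed myeloid markers, at 67.2, 39.8 and 54.4 against 16.7, 26.4 and 37.0 CPM. Immediate early and stress genes summed to 765 to 890 CPM in BN1 and 489 to 663 CPM in control cells. Summed T cell markers (23.4 to 44.5 against 47.6 to 74.6 CPM) were lower, and summed erythroid markers were below the partner in 3 of 3 pairs (362, 253 and 244 against 520, 437 and 247 CPM). Their part was not tested.

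In AFFN1 cells of day 14 none of the 10 genes was called against control with the block, by edgeR's quasi-likelihood test, where 0.317% of all genes were higher and 0.24% lower. At an unadjusted p under 0.05 there were 2, Foxo1 and Lef1. All genes under that p were not counted with the block, so the 2 cannot be set against a share of all genes. Lef1, Foxo1, Pax5 and Sox4 were each above their partner in 3 of 3 pairs. Lef1 stood at 570.1, 806 and 782 CPM in AFFN1 cells, with a difference of 0.57 ± 0.15 (adjusted p = 0.167). Foxo1 had 190.3, 236 and 362 CPM (0.38 ± 0.15, 0.369). Pou2af1, which fell on day 6, had 356, 907 and 901 CPM on day 14, ratios of 0.514, 1.11 and 0.930 (-0.29 ± 0.22, 0.653). The low value is that of AFFN1 library 1, which stood apart in the whole profile. Pou2f2 had 165, 85.9 and 121 CPM, with ratios of 1.96, 1.05 and 0.789 (0.24 ± 0.35, 0.831). The differences were 0.19 ± 0.11 for Pax5 (0.537), 0.34 ± 0.17 for Sox4 (0.476) and 0.063 ± 0.14 for Ebf1 (0.888). They were 0.025 ± 0.12 for Bach2 (0.952), -0.13 ± 0.13 for Bcl11a (0.720) and 0.026 ± 0.12 for Foxp1 (0.951). Between BN1 and AFFN1 cells none was called either (0.0686% of all genes higher and 0.112% lower). An unadjusted p under 0.05 was reached by 4, which again cannot be set against a share of all genes. Bach2 had the lowest p (0.50 ± 0.12, adjusted p = 0.109), and Pou2f2 had the widest difference with a larger error (-0.54 ± 0.35, adjusted p = 0.479). The others were Ebf1 (0.31 ± 0.14, 0.297), Pax5 (0.19 ± 0.11, 0.427), Foxo1 (0.35 ± 0.15, 0.288) and Lef1 (0.16 ± 0.15, 0.619). Pou2af1 (0.39 ± 0.22, 0.406), Bcl11a (-0.023 ± 0.13, 0.944), Foxp1 (0.34 ± 0.12, 0.220) and Sox4 (0.14 ± 0.17, 0.709) complete the list.

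**Figure D4:**
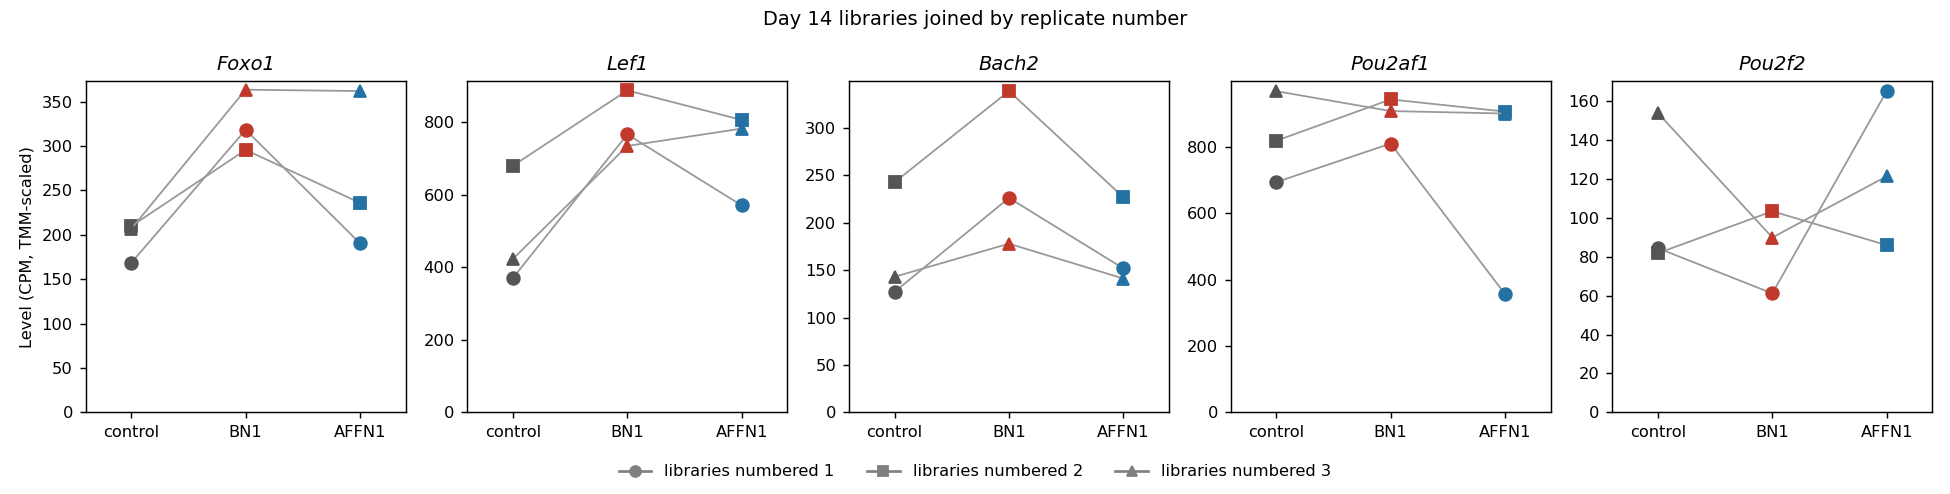
Level in CPM (TMM-scaled) of 5 of the genes in the day 14 libraries, with lines joining libraries of the same number. Foxo1, Lef1 and Bach2 rise from control to BN1 along all 3 lines, while Pou2af1 falls to 356 CPM along the line of the libraries numbered 1 in AFFN1 cells and Pou2f2 has lines in both directions.

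The fusion effects of the 2 days were also compared with each other. The AFFN1 effect on Lef1 was higher on day 14 than on day 6 by 1.88 ± 0.40 on the log2 scale (adjusted p = 0.0236), where 0.724% of all genes had a higher and 0.732% a lower effect, and it was the only one of the 10 genes called. With the block the change was 1.81 ± 0.31 (adjusted p = 0.00714), against 1.29% and 1.25% of all genes. The levels behind it are means of 216 and 491 CPM in control cells of day 6 and day 14, 86.2 and 719 CPM in AFFN1 cells and 147 and 796 CPM in BN1 cells. From the earlier to the later day the mean thus rose 2.27-fold in control, 8.34-fold in AFFN1 and 5.42-fold in BN1 cells. Of the 10 genes 0 were called for a change in the BN1 effect, against 1.93% and 1.04% of all genes, and 1 had an unadjusted p under 0.05, against 1635 of 12567. For BN1 the change in the Lef1 effect was 1.25 ± 0.40 and not called (adjusted p = 0.126). With the block it was called (1.27 ± 0.30, adjusted p = 0.0296), as was a smaller Bach2 effect on day 14 (-0.77 ± 0.21, 0.0492), against 3.2% and 1.97% of all genes, and DESeq2 called Lef1 alone (0.0341). Without the block the BN1 effect changed by 0.023 ± 0.32 for Ebf1 (edgeR, adjusted p = 0.992) and -0.12 ± 0.19 for Pax5 (0.864). The AFFN1 effect changed by 0.20 ± 0.32 for Ebf1 (0.952) and -0.16 ± 0.19 for Pax5 (0.905).

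The AFFN1 change in Lef1 stayed between 1.48 and 2.19 when any single library was left out. It lost its call without control library 3 of day 6 (1.48, adjusted p = 0.0531), AFFN1 library 1, 2 or 3 of day 6 (0.0592, 0.0678 and 0.0743), control library 1 or 3 of day 14 (0.0532 and 0.0807) or AFFN1 library 2 or 3 of day 14 (0.0573 and 0.0618). Without the libraries numbered 1, 2 or 3 of all groups it was 2.02, 2.34 and 1.24. None of these was called (edgeR, adjusted p = 0.177, 0.0615 and 0.287). Without AFFN1 library 1 of day 14 Pou2af1 was called too (0.96, adjusted p = 0.0154). Without control library 2 of day 14 the BN1 change in Lef1 was called (1.56, adjusted p = 0.0388). The exons of Lef1 share 1208 bases with an antisense gene, ENSMUSG00000106086, at 2.01 to 19.5 CPM before scaling, and the strand setting of the counting is not given in the sources used here, so reads of the 2 genes may not be fully separate. Foxo1 shares 674 bases with the antisense gene Gm20402 (0 to 3.25 CPM), and the counted antisense genes over Pax5, Bach2 and Bcl11a had at most 0.265 CPM. Other overlapping genes were not among those counted, so their reads cannot be checked. Gm26735 shares 2616 of the 4795 exon bases of Sox4 and 5730488B01Rik shares 636 bases with Pax5, both on the opposite strand. Gm20696 shares 300 bases with Foxp1 on the same strand. T cells also express Lef1. The summed T cell markers in day 14 cells were 47.6 to 74.6 CPM in control, 23.4 to 44.5 CPM in BN1 and 30.6 to 40.7 CPM in AFFN1 cells, with Cd3e at 0 in all 9 libraries. On day 6 they were 2.38 to 3.02, 4.54 to 5.34 and 3.83 to 4.10 CPM. Their part in the Lef1 values was not tested.

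Of 20 relatives of the 10 genes in their families, 9 passed the filter on low counts. Values in parentheses are the log2 fold change and the adjusted p of edgeR's test, and where 1 group is near 0 the fitted fold depends on the prior count. On day 6, 2 of the 9 were higher in BN1 and 2 in AFFN1 cells and none lower, where 8.83% and 7.79% of all genes were higher and 8.53% and 4.87% lower. Sox12, a relative of Sox4, went from 0.128 to 0.400 CPM in control to 7.92 to 9.54 CPM in BN1 (adjusted p = 3.18e-06) and 3.89 to 4.65 CPM in AFFN1 cells (3.86e-05), although these levels stayed low. Foxo3 in BN1 (0.38, 0.0185) and Foxp4 in AFFN1 cells (0.34, 0.0381) were the other 2. Between the fusions Sox12 was higher in BN1 cells (1.02, 0.0128), and Foxp4 (-0.34, 0.0439) and the Lef1 relative Tcf7 (-1.42, 0.0285) were lower, where 4.99% of all genes were higher and 6.19% lower. On day 14, with the block, Tcf7 was higher in BN1 than in control cells (1.37, 0.0165), at 32.0 to 36.9 against 8.40 to 18.8 CPM, as were Tcf7l2 (0.79, 0.0208) and Bach1 (0.78, 0.00991), which makes 3 of 9 higher against 4.95% of all genes. In control cells 3 relatives were higher on day 14, among them Sox12 (4.14, adjusted p = 1.46e-06), Tcf7 (1.75, 0.000868) and Foxp4 (1.11, 7.88e-05), and 3 were lower, with Bach1 foremost (-1.13, 2.22e-05), where 22.4% of all genes were higher and 21.4% lower. The change between days was negative for the Sox12 effect of both fusions (BN1 -5.34, 1.13e-05, and AFFN1 -3.20, 0.00280) and positive for the Tcf7 effect of BN1 (2.06, 0.0303).

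Of 8 genes that Foxo1 activates, 5 were higher in BN1 cells of day 6 (median log2 fold change 1.05) and 4 in AFFN1 cells (median 1.19), and none was lower in either, against 8.83% and 7.79% of all genes higher. S1pr1, a receptor for exit from tissues, had 0.128 to 1.40 CPM in control and 9.53 to 12.0 CPM in BN1 (adjusted p = 0.000520) and 10.9 to 17.0 CPM in AFFN1 cells (0.000431). Ccr7 (1.20, 0.00138 and 1.77, 0.000240) and Rag1 (0.90, 0.0195 and 1.18, 0.00675) were higher with both fusions. On day 14, with the block, 4 of 8 were higher in BN1 cells (median 1.33), among them Rag1 (1.97, adjusted p = 0.0137), Rag2 (1.34, 0.0137) and Il7r (0.91, 0.0284), and none in AFFN1 cells (median 0.90), against 4.95% and 0.317% of all genes higher. Rag1 stood at 188, 460 and 383 CPM in control and at 1149, 1167 and 1473 CPM in BN1 cells of that day. In control cells Ccr7 (3.74, 9.96e-09) and S1pr1 (4.31, 0.00129) were higher on day 14 and Rag1 (-1.52, 0.00449) and Rag2 (-0.70, 0.0430) lower, 2 each of 8 against 22.4% and 21.4% of all genes. The effect of BN1 on Ccr7 was smaller on day 14 (-1.13, 0.0462).

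Genes activated by Ebf1 and Pax5 mostly did not pass the test between genotypes. On day 6, 2 of 10 tested were higher in BN1 cells, the Fc receptor-like gene Fcrla (2.66, adjusted p = 0.000459) and the surrogate light chain gene Vpreb2 (0.45, 0.0488), with a median of 0.020 and against 8.83% of all genes. In AFFN1 cells Vpreb2 (0.72, 0.00785) and Fcrla (1.35, 0.0215) were higher and Igll1, another surrogate light chain gene, was lower (-0.44, 0.0160), with a median of 0.011 and against 7.79% of all genes higher and 4.87% lower. BN1 cells exceeded AFFN1 cells in Blk (1.26, 0.0155), Igll1 (0.45, 0.0163) and Fcrla (1.31, 0.0203), 3 of 10 against 4.99% of all genes. With the block, Blnk was higher in BN1 than in control cells of day 14 (0.76, 0.0240), 1 of 10 against 4.95%. In control cells 4 of 11 were higher on day 14, namely Cd79a (1.63, 6.76e-05), Vpreb2 (1.07, 0.000789), Fcrla (3.63, 0.00806) and Blnk (0.72, 0.0268), against 22.4% of all genes.

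Among 7 genes that Pax5 represses, the cytokine receptor gene Flt3 was higher in both fusions on day 6 (BN1 1.21, adjusted p = 0.000720, and AFFN1 1.84, 0.000105), beside higher Pax5. Flt3 stood at 29.6 to 36.0 CPM in control, 65.1 to 87.0 in BN1 and 90.3 to 134 CPM in AFFN1 cells. Xbp1 was lower in BN1 cells (-0.84, 0.00997), and the other 5 did not pass in BN1 and the other 6 in AFFN1 cells, where 8.83% and 7.79% of all genes were higher and 8.53% and 4.87% lower. AFFN1 cells exceeded BN1 cells in Cd28 (-1.65, 0.0188), Flt3 (-0.63, 0.0291) and Notch1 (-0.42, 0.0340), given as BN1 against AFFN1, 3 of 7 against 6.19% of all genes. With the block, Jchain was lower (-1.94, 0.0329) and Notch1 higher (0.56, 0.0418) in BN1 than in control cells of day 14, 1 each of 6 tested against 6.61% and 4.95% of all genes. In control cells Xbp1 was higher on day 14 (1.63, 0.00376) and Notch1 (-0.61, 0.00497) and Csf1r (-3.48, 0.00633) were lower, against 22.4% and 21.4% of all genes.

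Of 18 other regulators of the network tested, 4 were higher and 2 lower in BN1 than in control cells of day 6, and 3 were higher and 1 lower in AFFN1 cells. The shares over all genes were 8.83% and 8.53% for BN1 and 7.79% and 4.87% for AFFN1 cells. Ikzf1, which encodes Ikaros, was higher with both (0.71, adjusted p = 0.00151 and 0.64, 0.00398), as was Irf4 (1.64, 0.00164 and 1.14, 0.0143). BN1 cells had lower Spib (-1.90, 0.00585) and higher Mef2c (0.52, 0.00601), and AFFN1 cells had higher Gfi1 (0.71, 0.00138) and lower Ikzf3 (-1.68, 0.0118). Between the fusions 4 were higher and 2 lower in BN1 cells (4.99% and 6.19% of all genes), among them Gfi1 (lower, -0.81, 0.000553) and Ikzf3 (1.84, 0.00765), Myb (0.68, 0.0155) and Ets1 (0.46, 0.0156, all higher). On day 14, with the block, Tle4 (0.69, 0.0160), Tcf12 (0.69, 0.0185) and Ikzf1 (0.49, 0.0306) were higher in BN1 cells and none lower (4.95% and 6.61% of all genes). In control cells 7 were higher and 1 lower on day 14 (22.4% and 21.4% of all genes), led by Irf4 (2.21, 1.15e-05), Spi1 (0.76, 0.000124), Ikzf3 (2.63, 0.000387) and, lower, Mef2c (-0.61, 0.00161).

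The genes most like Ebf1 and Pax5 were sought among 9581 genes of at least 5 CPM, by Pearson's r of log2 CPM over the 18 libraries after the mean of each day was subtracted. Nearest to Ebf1 were Zranb1 (r = 0.961), Chmp1b (0.905), Bnip3l (0.898), Ero1lb (0.897) and Akr1e1 (0.895). Nearest to Pax5 were Cflar (0.920), Eif2ak4 (0.920), Ikzf1 (0.913), Zfp318 (0.910) and Zfp608 (0.905). Neither list held the other gene, and r between Ebf1 and Pax5 was 0.13. Among the 10 genes the highest r was that of Pax5 and Bach2 (0.854), followed by Bach2 and Foxp1 (0.846), and the lowest that of Pou2af1 and Bcl11a (-0.78). These values describe points that share libraries, depth and group differences.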

How the data were processed

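Poly(A) RNA of sorted bone marrow cells was sequenced in 18 libraries, with 3 for every group. The authors deposited expected counts per gene. The submitters' processing notes name STAR, RSEM and DESeq2, with the genome build mm10. Still not given in the sources used here are tool versions, gene models and whether counting used strand. Of the values of a library, 1.74 to 2.12% were not whole, and these expected counts were rounded before any test. Identifiers kept apart the 78 genes that share a name with another, and 32235 of the 32285 identifiers were found in GENCODE M21.

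Low counts were filtered (filterByExpr), library sizes were TMM-scaled, and the comparisons used the quasi-likelihood test of edgeR 4.0.16 in R 4.3.3, two-sided, with Benjamini-Hochberg adjustment over all genes tested. Within a day the 9 libraries of that day were fitted (12068 genes on day 6, 11657 on day 14), and across days all 18 (12567 genes). DESeq2 1.42.0 and other scalings, filters, fits and left-out libraries served as alternatives. On simulated counts, a 1.5-fold change was recovered in 49.5% of changed genes for BN1 against control on day 6, 8.08% on day 14 and 34.0% on day 14 with the block. A 4-fold change was recovered in 99%, 89.8% and 95%. The simulated counts of day 6 held only 99 genes changed 1.5-fold and 100 changed 4-fold, with spreads from the fitted trend. Recovery in the real counts may differ.

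The replicate numbers come from the labels. On day 14 the 9 same-numbered pairs of libraries correlated in their deviations from group means at 0.291 to 0.614 and the 18 other pairs at -0.503 to 0.0141, so the numbers were taken as pairs. On day 6 same-numbered pairs ranged from -0.321 to 0.351 and were not. The 10 genes and the gene lists were chosen with earlier results of these data known. All 10 genes are given in every comparison, with up to 4 called genes of lowest adjusted p from each other list and the 5 genes most like Ebf1 and Pax5. Of the genes this rule takes, 1 is not reported here.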

Additional observations from a re-analysis of the deposited data

Results flagged for a closer look

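The effect of AFFN1 on Lef1 differed between the days by an interaction term in the fit of all 18 libraries. In the fits of each day without the block the effect was -1.33 on day 6 and 0.54 on day 14 on the log2 scale, and the difference in the fit of all libraries was 1.88 (SE 0.400, adjusted p = 0.0236 by edgeR's quasi-likelihood test). Lef1 was below the lowest control in 3 of 3 AFFN1 libraries of day 6 and above the control of the same number in 3 of 3 of day 14.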

How the results depend on the processing

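The directions of called differences did not reverse under any alternative run (another scaling, no filter on low counts, DESeq2, the replicate block, all 18 libraries in 1 fit, and left-out libraries). Counts of called genes moved as follows. With DESeq2, 6 were called in BN1 against AFFN1 on day 6 (3 without), 5 in BN1 against control (4 without, Foxp1 added), 8 in AFFN1 against control (7 without, Foxo1 added), 1 in BN1 against control on day 14 and 1 in the change of the BN1 effect (0 without). Over all genes DESeq2 called 1791, 2633, 2037, 743 and 605 in these comparisons, in the same order. Without it 1349, 2095, 1528, 3 and 373 were called. Without the filter on low counts, 5 were called in BN1 against control on day 6 (Foxp1 added, adjusted p = 0.0486) and 5 in AFFN1 against control, where Lef1 (adjusted p = 0.0678) and Bach2 (adjusted p = 0.0612) lost the call. Of 18082 genes then tested, 1970 and 1432 were called. With all 18 libraries in 1 fit, 2 were called in BN1 and 2 in AFFN1 against control and 1 in BN1 against AFFN1 on day 6, and 1 in BN1 against control on day 14. Of 12567 genes, 1032, 676, 624 and 691 were called in these comparisons, in the same order. The cause was not tested.

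With the replicate number as a block, the pairing gave 3 called genes in BN1 against control on day 14, 1 also without the libraries numbered 1 and 3 without those numbered 3, and 2 in the change of the BN1 effect. On day 6, where the numbers do not pair all groups, the block ended the calls of Sox4 in BN1 (adjusted p = 0.0602) and Pax5 in AFFN1 cells (adjusted p = 0.0517), and it changed no other call of the 10 genes. Signs turned only for values that were not called. For AFFN1 against control on day 14, the block without the libraries numbered 1 gave Pou2f2 -0.18, Bach2 -0.078 and Foxp1 -0.027, and without those numbered 3 Ebf1 -0.016. For BN1 on day 14 it gave Bcl11a 0.11 against AFFN1 without number 1 and Pou2f2 0.0044 against control without number 3. The block gave Foxo1 -0.040 in the change of the AFFN1 effect.

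Leaving out 1 library, or all libraries of 1 number, gave 1 to 7 called genes in BN1 against control, 1 to 9 in AFFN1 against control and 1 to 4 in BN1 against AFFN1 on day 6. Over all genes 473 to 3890, 289 to 3873 and 304 to 1741 were called in these fits. The range was 3 to 8 for control between days, 0 to 1 for the change of the BN1 effect, 0 to 2 for that of the AFFN1 effect and 0 to 0 for the comparisons of day 14 without the block. Over all genes it was 3614 to 5277 for control between days, 111 to 381 for the change of the BN1 effect and 38 to 214 for that of the AFFN1 effect. The log2 fold changes that crossed 0 ranged as follows on day 6. For BN1 against control they were Bcl11a -0.023 to 0.096 and Pou2f2 -0.13 to 0.32, for AFFN1 against control Ebf1 -0.23 to 0.16, and for BN1 against AFFN1 Foxo1 -0.093 to 0.24. On day 14 they were Pou2af1 -0.012 to 0.23 and Pou2f2 -0.67 to 0.027 for BN1 against control. For AFFN1 against control they were Ebf1 -0.22 to 0.30, Pou2af1 -0.42 to 0.11, Pou2f2 -0.21 to 0.60, Bach2 -0.24 to 0.35, Bcl11a -0.33 to 0.049 and Foxp1 -0.064 to 0.11. For BN1 against AFFN1 they were Pou2af1 -0.025 to 0.50 and Bcl11a -0.19 to 0.16. In the change of the BN1 effect they were Ebf1 -0.14 to 0.22, Foxp1 -0.19 to 0.13 and Sox4 -0.19 to 0.39, and in that of the AFFN1 effect Ebf1 -0.18 to 0.40, Foxo1 -0.42 to 0.29 and Sox4 -0.32 to 0.17. The 3 libraries a group limit what could be detected, most of all on day 14.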
